A study of Mus musculus with 4 samples.

Results

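Insulin-like growth factor (IGF) signalling was read in these libraries through 9 genes: the ligand Igf1, the receptors Igf1r and Igf2r, and the binding proteins Igfbp2, Igfbp3, Igfbp4, Igfbp5, Igfbp6 and Igfbp7. They were taken by gene symbol, and all 9 were listed in each of the 4 count matrices, among 32285 features in the lung matrices and 31053 in the allograft matrices. The 4 groups held 1 library each. RPR2 and CRPR2 were lung tumours from a mouse model of small cell lung cancer, which is a neuroendocrine carcinoma, with tumours induced by knockout of genes. Labels preSC_WT and preSC_CracdKO mark allograft tumours of the mouse cell line preSC, of genotype WT and CracdKO. The labels do not spell out the alleles behind RPR2 and CRPR2, and they give no age, sex, host strain or number of animals or cell clones. With 1 library a group no spread between animals could be measured, so no test was run, and every interval given covers counting error only.

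IGF1 is a secreted growth factor that signals through IGF1R, a receptor tyrosine kinase coupled to the IRS adaptors and the PI3K and AKT kinases. IGF2R, the cation-independent mannose 6-phosphate receptor, binds IGF2 and carries it to lysosomes. The IGF-binding proteins are secreted carriers that hold IGFs outside the cell and can limit or prolong their action. IGFBP7 binds IGFs weakly and is known as a protein of vessels and matrix.

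The binding-protein genes Igfbp2 and Igfbp5, with which most of the tumour-cell results are concerned, are neighbours in the mouse genome. In build mm10 Igfbp2 lies at chr1:72824503-72852474 on the plus strand and Igfbp5 at chr1:72857932-72874884 on the minus strand. They face each other tail to tail, with 5457 bases and 0 annotated genes between them. Their promoters therefore lie at the outer ends of the pair and share no sequence. The windows below hold 230 bases and end 20 bases before the RefSeq transcript start (RefSeq, GRCm38.p6). For Igfbp2 the table lists a second start downstream, whose window is not shown. Both windows are given because the 2 genes were expressed in tumour cells at levels that differed between the allografts in opposite directions. Capitals mark the E-box pattern CANNTG, the GC box GGGCGG and the sequence TTTAAA, each searched on both strands.
Igfbp2, chr1:72824230-72824459, plus strand: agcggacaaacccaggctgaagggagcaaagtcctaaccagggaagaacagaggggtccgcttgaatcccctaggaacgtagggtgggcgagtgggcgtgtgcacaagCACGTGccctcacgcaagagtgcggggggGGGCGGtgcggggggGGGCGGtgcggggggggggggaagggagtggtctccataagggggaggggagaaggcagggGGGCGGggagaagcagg
Igfbp5, chr1:72874886-72875115, minus strand: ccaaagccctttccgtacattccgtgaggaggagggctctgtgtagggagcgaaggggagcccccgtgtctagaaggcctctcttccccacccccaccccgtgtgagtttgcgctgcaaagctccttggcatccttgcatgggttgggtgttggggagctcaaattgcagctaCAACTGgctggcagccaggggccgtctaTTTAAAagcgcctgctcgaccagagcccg

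The Igfbp2 window held 3 copies of GGGCGG, 1 CANNTG (as CACGTG) and 0 TTTAAA, with a GC content of 68.3%. Igfbp5 had 0 GGGCGG, 1 CANNTG (as CAACTG) and 1 TTTAAA, with a GC content of 60.4%. The first base of that TTTAAA lay at position -49 from the RefSeq start, or -30 from the GENCODE start. Of 32851 mouse promoter windows of this length, 29.8% held GGGCGG, 63.5% held CANNTG and 11.5% held TTTAAA, and the median GC content was 51.7%. These are matches of letters, and no binding was measured.

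The matrix of RPR2 held 42592323 UMIs, that of CRPR2 61917754, that of preSC_WT 93376185 and that of preSC_CracdKO 110576113, and 8869, 10817, 18112 and 14054 cells were kept. A UMI marks 1 captured RNA molecule. Levels are counts per 1000000 UMIs (CPM), with the UMIs of all cells of a class in a library added up, with exact Poisson 95% intervals. Tags come from the 3' end of the transcript and are not scaled to length, so levels were compared between classes and libraries and not between genes. Cells were clustered without the 9 genes among the variable genes and named from marker genes, which gave a neuroendocrine tumour class of 3065, 6629, 13840 and 13727 cells in the libraries in the order above, and other classes called fibroblast-like, T-cell-like and so on. Club-like airway cells were found in both lung libraries, and no cluster took the name of an alveolar cell type. Cracd, listed as C530008M17Rik, went against its label: tumour cells held 6.51 CPM in preSC_WT and 84.1 CPM in the library labelled preSC_CracdKO. In the lung tumours they held 31.6 CPM (RPR2) and 23.6 CPM (CRPR2). Whether the 3' tags lie outside the edited part of the gene is not given in the sources used here, and an exchange of the 2 labels was not tested. An exchange would turn every allograft ratio below, so the allografts are named by their labels only. Of the kept RPR2 cells, 2709 formed a T-cell-like cluster with 1562 CPM of Rag1, a gene of immature lymphocytes, to which CRPR2 contributed 0 cells. The numbers of barcodes shared between pairs of libraries were 36 to 79.

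**Figure D1:**
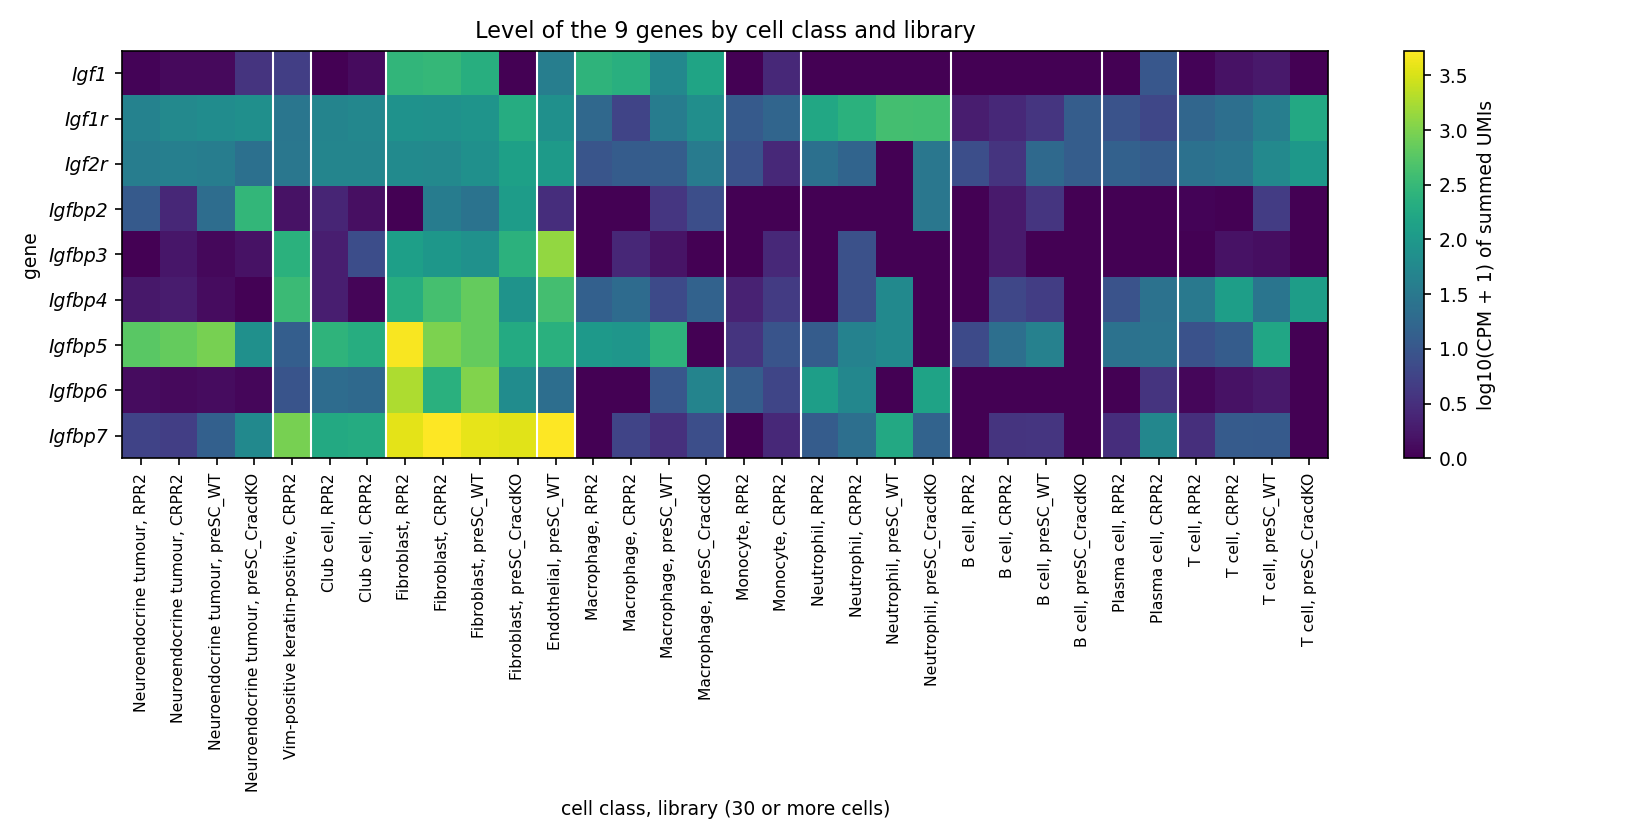
Heat map of the 9 genes (rows) in each cell class and library of 30 or more cells (columns), coloured by log10(CPM + 1) of summed UMIs. Igfbp5 is bright in the tumour columns of RPR2, CRPR2 and preSC_WT (588, 707 and 904 CPM) and dimmer in the library labelled preSC_CracdKO (73.5 CPM), where Igfbp2 is bright instead (292 CPM), and Igfbp7 is brightest in fibroblast-like and endothelial-like cells.

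The tumour cells of both lung tumours carried the same short list of IGF genes: Igfbp5 and the 2 receptors. Igfbp5, a matrix-binding carrier of IGFs, stood at 588 CPM in RPR2 and 707 CPM in CRPR2, a ratio of CRPR2 over RPR2 of 1.20 (1.18 to 1.23). Igf1r stood at 43.7 and 55.5 CPM (ratio 1.27, 1.17 to 1.38), and Igf2r at 37.1 and 39.5 CPM (ratio 1.07, 0.973 to 1.17). These 3 genes were the members that reached 20 CPM in 1 or both libraries, and 0 of the 3 differed 2-fold or more, where 1.19% of the 7200 genes at that level did. Their median log2 ratio was 0.27, against -0.03 over those 7200 genes. The other 6 members were at 10.3 CPM or less in tumour cells of both lung libraries.

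Tumour cells held almost no RNA for the ligand Igf1. The other IGF ligand, Igf2, is not among the 9 genes and stood at 167 CPM in RPR2 and 210 CPM in CRPR2. Igf1 gave 2 UMIs in RPR2 and 6 in CRPR2, or 0.0891 and 0.223 CPM. Igfbp3 gave 0 UMIs in RPR2 and 0.707 CPM in CRPR2, Igfbp4 0.758 and 0.93 CPM, Igfbp6 0.312 and 0.223 CPM, and Igfbp7 4.55 and 3.98 CPM. Igfbp2 was the member with the largest gap below the level rule, with 232 UMIs (10.3 CPM) in RPR2 and 42 UMIs (1.56 CPM) in CRPR2, 6.62-fold lower in CRPR2 (4.75 to 9.43). Those 232 UMIs lay in 98 of the 3065 RPR2 tumour cells, and the 31 cells with most held 67.7% of them. By cluster, Igfbp2 in RPR2 reached 32.7 CPM in tumour cluster 0 and 1.99 CPM in cluster 2.

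Thinning each cell to 1000 UMIs, so that deep and shallow cells have the same chance of showing a gene, left an Igfbp5 UMI in 35.9% of RPR2 and 42.0% of CRPR2 tumour cells (73.4% and 68.2% before thinning). In B-cell-like cells of the same libraries, which should lack the gene, the thinned shares were 0.779% and 1.44%. Cells too shallow to thin numbered 87 and 400 in the tumour class. An Igf1r UMI was in 3.86% and 5.41% of the thinned tumour cells, and an Igf2r UMI in 3.29% and 3.87%.

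Within each lung tumour Igfbp5 was graded across the tumour clusters, and the receptors were nearly flat. Igfbp5 was lowest in cluster 6, with 236 CPM in RPR2 and 186 CPM in CRPR2, and highest in cluster 3, with 808 and 964 CPM. Cluster 6 was led by mitotic genes and held 1387 and 1656 CPM of Top2a, a topoisomerase of dividing cells. The highest cluster was 3.43 times the lowest in RPR2 (3.19 to 3.69) and 5.18 times in CRPR2 (4.70 to 5.73). Igf1r ran from 37.3 to 51.4 CPM over the RPR2 clusters and from 46.5 to 62.6 CPM over those of CRPR2. Igf2r ran from 35.0 to 41.8 CPM and from 33.2 to 47.3 CPM. The members with 20 CPM in their highest cluster were Igf1r, Igf2r, Igfbp5 and, in RPR2 only, Igfbp2. Of these, 2 in RPR2 (Igfbp2 and Igfbp5) and 1 in CRPR2 (Igfbp5) differed 3-fold or more between clusters. Among all genes at that level, 10.8% and 12.0% did.

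**Figure D2:**
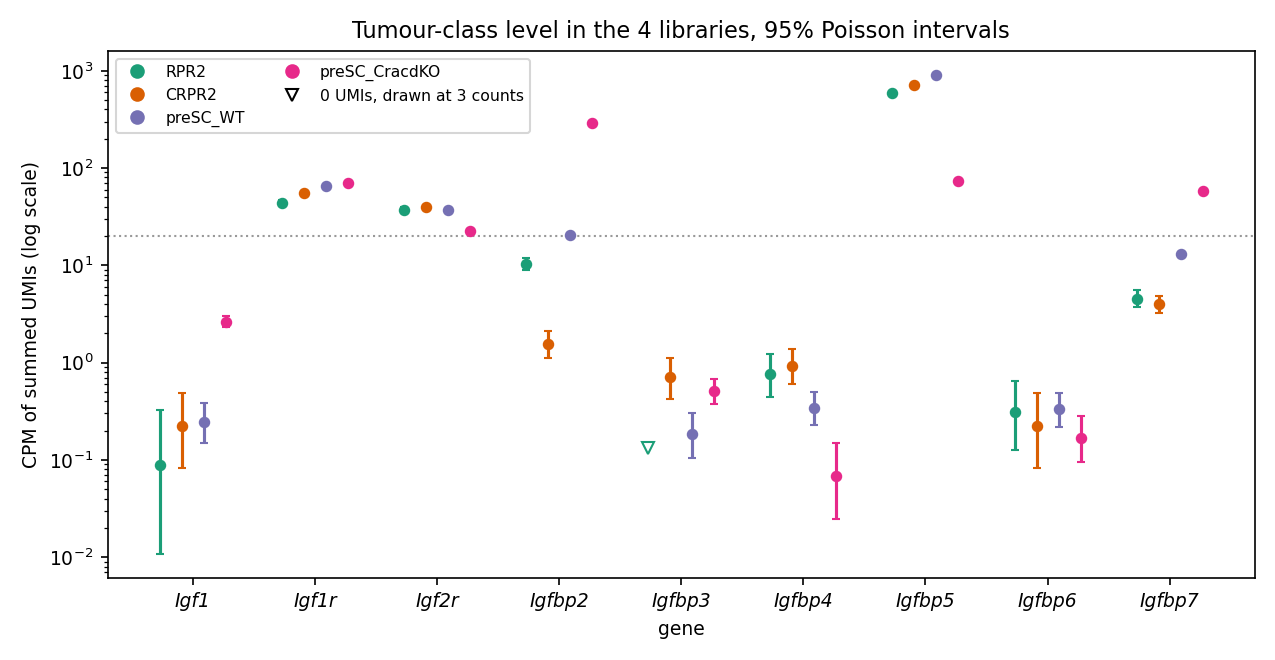
CPM of summed UMIs (log axis) of each of the 9 genes in the tumour class of the 4 libraries, with 95% Poisson intervals; an open triangle marks 0 UMIs, drawn at 3 counts, and the dotted line is 20 CPM. Igf1r and Igf2r sit within a narrow band in all 4 libraries (43.7 to 70.2 and 22.5 to 39.5 CPM), whereas Igfbp5 and Igfbp2 change places between the 2 allografts.

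In the allografts the tumour class of the library labelled preSC_CracdKO held far less Igfbp5 and far more Igfbp2 and Igfbp7 than that of preSC_WT. Igfbp5 stood at 904 CPM in preSC_WT and 73.5 CPM in preSC_CracdKO, 12.3-fold lower (12.0 to 12.6). Igfbp2, a carrier prominent in embryonic and glial tissue, stood at 20.7 and 292 CPM, 14.1-fold higher (13.4 to 14.8). Igfbp7 stood at 12.9 and 58.4 CPM, 4.52-fold higher (4.23 to 4.84). The receptors moved less: Igf1r was 64.8 and 70.2 CPM (ratio 1.08, 1.05 to 1.13) and Igf2r 37.1 and 22.5 CPM (1.65-fold lower, 1.56 to 1.75). Of 5 members with 20 CPM in the higher library, 2 were 2-fold or more higher and 1 was lower, where 7.16% of 8146 genes were higher and 14.8% lower. Their median log2 ratio was 0.12, against -0.15 over all those genes.

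Nearly all tumour cells of the 2 allografts lay in different clusters, so the sums compare different clusters as well as different libraries. Clusters 0, 2, 3, 5 and 7 held 12987 of the preSC_WT tumour cells (93.8%) and 132 of preSC_CracdKO, and clusters 10, 11, 12, 13, 14 and 17 held 13591 of preSC_CracdKO (99.0%) and 403 of preSC_WT. When the 4 clusters to which both libraries gave 50 cells or more (5, 10, 11 and 13) were given the same weight, the Igfbp2 ratio was 1.69, under the 2-fold rule, Igfbp5 was 3.92-fold lower and the Igf2r ratio was 1.08, which turned its direction. The Igfbp7 ratio ran from 3.43 to 5.02 over the 8 alternatives run.

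Within preSC_WT itself, Igfbp2 and Igfbp5 separated by cluster. In its 5 main clusters Igfbp5 was 948 CPM and Igfbp2 7.39 CPM, beside 2078 CPM of the epithelial keratin Krt8. Cluster 1, a set of 450 preSC_WT cells (3.25%) with 38.5 CPM of Krt8 and 1584 CPM of the neurexin gene Nrxn3, held 278 CPM of Igfbp2 and 82.4 CPM of Igfbp5. The 403 preSC_WT cells that fell in the clusters of preSC_CracdKO held 227 CPM of Igfbp2 and 126 CPM of Igfbp5. For Igfbp2 and Igfbp5 both minor sets thus had levels near those of the other allograft. There Igfbp2 was 292 CPM and Igfbp5 73.3 CPM in the same 6 clusters. For Igfbp7 they did not: it was 1.00 CPM (3 UMIs) in cluster 1 and 8.86 CPM (11 UMIs) in the 403 cells. The same 6 clusters of preSC_CracdKO held 58.4 CPM of Igfbp7, and the main clusters of preSC_WT held 13.4 CPM. Both minor sets also held more Cracd than the main clusters, at 66.3 and 30.6 CPM against 3.80 CPM. Of the 132 preSC_CracdKO cells in the main clusters of preSC_WT, 128 lay in cluster 5. These 132 cells held 245 CPM of Igfbp2, 127 CPM of Igfbp5 and 20.4 CPM of Krt8, so they were unlike the preSC_WT cells there in Krt8 too.

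Inside shared clusters the library difference varied. In cluster 10 Igfbp2 was 304 CPM in preSC_WT and 199 CPM in preSC_CracdKO, and Igfbp5 was 69.1 and 87.9 CPM. Cluster 11 had 85.3 and 187 CPM of Igfbp2, and 75.3 and 47.3 CPM of Igfbp5. Cluster 13 had 150 and 330 CPM of Igfbp2, and 288 and 61.9 CPM of Igfbp5. Cluster 5, whose cells had a median of 1463 UMIs, had 36.6 and 254 CPM of Igfbp2, and 755 and 106 CPM of Igfbp5. So Igfbp2 was lower in preSC_CracdKO in cluster 10 and higher in the other 3. The Igfbp5 level was higher in cluster 10 and lower in the other 3. These clusters held 67 to 1198 cells of preSC_WT and 128 to 5402 of preSC_CracdKO. In clusters 10 and 11, with 142 and 111 preSC_WT cells, the Igfbp5 gap lay within counting error, so its direction there is not settled.

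Across clusters of 50 or more preSC_WT cells, Igfbp5 ran from 69.1 CPM (cluster 10) to 1224 CPM (cluster 3) and Igfbp2 from 2.59 CPM (cluster 3) to 304 CPM (cluster 10). The dividing cluster 7 of preSC_WT, with 1388 CPM of Top2a, held 533 CPM of Igfbp5. In preSC_CracdKO Igfbp2 ran from 187 CPM (cluster 11) to 584 CPM (cluster 14), Igfbp5 from 41.2 CPM (cluster 17) to 149 CPM (cluster 12), Igfbp7 from 19.4 CPM (cluster 12) to 94.0 CPM (cluster 13), and Igf1r from 46.5 CPM (cluster 17) to 122 CPM (cluster 14). In both allografts the members with 20 CPM in their highest cluster were Igf1r, Igf2r, Igfbp2, Igfbp5 and Igfbp7. Of these, 4 in preSC_WT (Igfbp2, Igfbp5, Igfbp7 and Igf2r) differed 3-fold or more between clusters. In preSC_CracdKO 3 did (Igfbp2, Igfbp5 and Igfbp7). Among all genes at that level, 42.9% and 18.6% did. For Igfbp7 in preSC_WT the lowest cluster rests on 3 UMIs, and the 2 clusters that passed 20 CPM (11 and 13) on 4 UMIs each, the others reaching 18.4 CPM at most. The lowest cluster for Igf2r rests on 1 UMI.

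**Figure D3:**
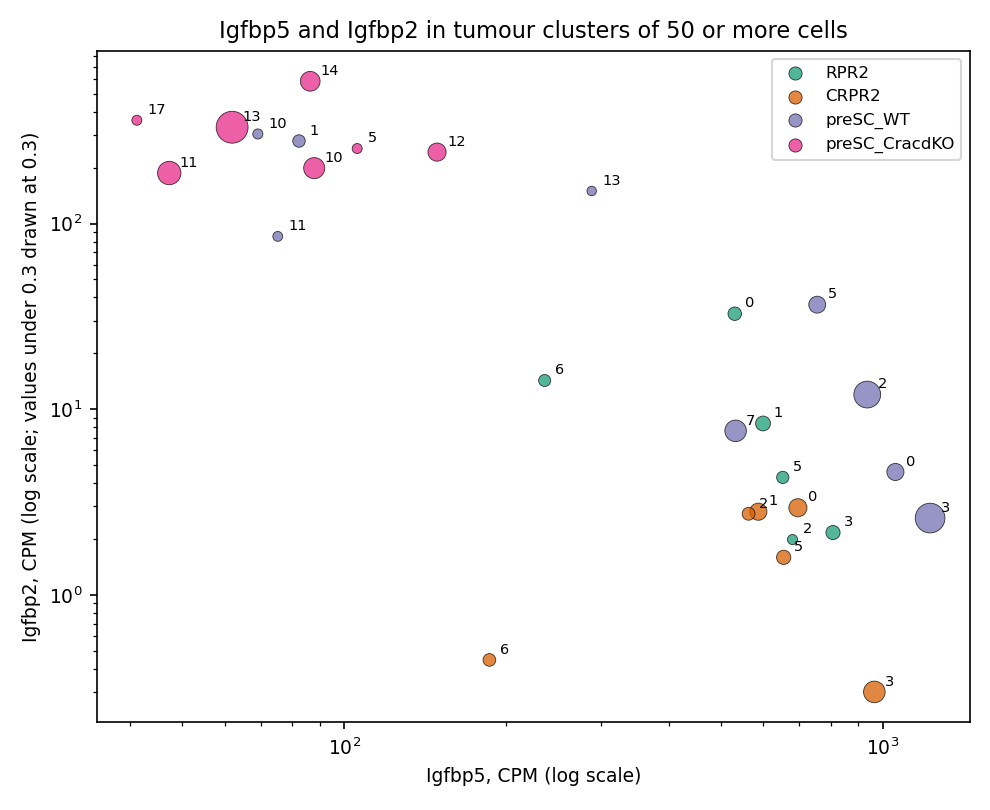
Igfbp5 (x axis) against Igfbp2 (y axis), both in CPM on log axes, in each tumour cluster of 50 or more cells; colour is the library, point area grows with the number of cells and the number is the cluster. preSC_CracdKO clusters lie at the upper left (Igfbp2 187 to 584 CPM), most preSC_WT clusters at the lower right, and preSC_WT clusters 1 and 10 among those of preSC_CracdKO.

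The 2 genes were then read in the same single cells. After thinning to 1000 UMIs, 13.9% of the preSC_WT tumour cells with an Igfbp2 UMI also had an Igfbp5 UMI, against 47.6% of the cells without one. This gap over all clusters includes which clusters the cells lie in: 103 of the 230 Igfbp2-positive cells were in cluster 1, where the shares were 8.74% and 7.62%, and 48 were in clusters mostly of preSC_CracdKO cells, where they were 8.33% and 11.6%. Within the 5 main clusters the shares were 24.1% (19 of 79 cells) and 49.4%. In preSC_CracdKO the shares were 5.92% and 6.13%. The thinned share of tumour cells with an Igfbp2 UMI was 1.76% in preSC_WT and 23.4% in preSC_CracdKO (5.50% and 63.6% before thinning), and with an Igfbp5 UMI 47.0% and 6.08% (75.5% and 25.7%). B-cell-like cells of preSC_WT had an Igfbp2 UMI in 0.712% and an Igfbp5 UMI in 3.20% of thinned cells.

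Of the low members, Igf1 gave 20 UMIs (0.246 CPM) in preSC_WT tumour cells and 232 UMIs (2.62 CPM) in those of preSC_CracdKO. The latter came from 158 of 13727 cells, and 138 cells held 91.4% of them. Igfbp3, Igfbp4 and Igfbp6 were at 0.508 CPM or less in tumour cells of both allografts.

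CRPR2 held a further population of 531 cells, found as the cluster in which Vim, an intermediate filament of mesenchymal cells, and the keratins Krt8 and Krt18 were high together (median 12531 UMIs a cell, against 3378 in its tumour class). RPR2 gave 8 cells to this cluster. The cells held 3050 CPM of Vim against 8.07 CPM in the tumour class, with 2275 CPM of Krt8 and 3111 CPM of Krt18, which are the values that chose them. They held 136 CPM of Calca, a neuropeptide gene, against 7266 CPM in tumour cells. Epcam, an epithelial gene, was at 175 CPM, against 1917 CPM in tumour cells and 826 CPM in club-like cells. Nkx2-1, a lung lineage gene, was at 17.6 CPM, against 163 and 170 CPM in those classes. Ptprc, the leukocyte gene, was at 1.36 CPM and the collagen gene Col1a1 at 3.24 CPM. Of 10 fibroblast markers, 2 were at 0 and their sum was 16.9 CPM; of 8 club-cell markers, 2 were at 0 and their sum was 2047 CPM, nearly all from Scgb1a1 (1932 CPM), which tumour cells also held at 601 CPM.

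These Vim-positive keratin-positive cells carried a different set of binding proteins from the tumour cells beside them. Igfbp7 stood at 907 CPM and had a UMI in 403 of the 531 cells (75.9%). Igfbp4, a soluble carrier cleaved by pappalysins, stood at 351 CPM, in 364 cells (68.5%). Igfbp3, the main carrier of IGFs in blood, stood at 239.9 CPM, in 264 cells (49.7%). After thinning to 1000 UMIs the shares were 46.6%, 26.3% and 14.3%. Igfbp5, the carrier of the tumour class, was at 12.1 CPM, Igf1r at 27.6, Igf2r at 28.8, Igfbp6 at 8.15, Igf1 at 3.87 and Igfbp2 at 0.522 CPM.

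Against the tumour class of the same library, Igfbp7 was 228-fold higher (188 to 278), Igfbp3 339-fold higher (217 to 565) and Igfbp4 377-fold higher (255 to 583). Igfbp5 was 58.3-fold lower (48.6 to 70.7), Igf1r 2.01-fold lower (1.76 to 2.30) and Igf2r 1.37-fold lower (1.20 to 1.57). Only these members had 20 CPM in the higher class. Of them 3 were past 2-fold upward and 2 downward, where 13.0% and 32.6% of 7735 genes were. A cluster set against another is a description. The Igf1r difference lay at the 2-fold line.

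Other classes of CRPR2 were set beside these cells. Igfbp7 was 4.70-fold higher than in club-like airway cells and 5.73-fold lower than in fibroblast-like cells. Igfbp4 was near the fibroblast-like level (1.22-fold lower, 1.11 to 1.35), and Igfbp3 was 2.58-fold higher (2.11 to 3.17). Igfbp5 and Igf1, both abundant in fibroblast-like cells, were 81.1-fold and 78.4-fold lower.

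Some of the Igfbp3 came with endothelial genes. Of the 531 cells, 33 held UMIs of 2 or more of 10 endothelial markers, and these had 866 CPM of Igfbp3 (615 UMIs). Without them, an alternative added once the data had been seen, the remaining 498 cells held 189.7 CPM of Igfbp3, 355 of Igfbp4, 881 of Igfbp7 and 10.8 of Igfbp5. Picking cells individually, by at least 2 UMIs of Vim and 2 of Krt8, Krt18 and Krt19 together, with 0 of Ptprc and Col1a1, gave 433 CRPR2 cells, 404 of them in the cluster, with 192 CPM of Igfbp3, 349.5 of Igfbp4, 863 of Igfbp7 and 15.5 of Igfbp5. The same rule found 8 RPR2 cells, none of the 8 in the cluster, with 0 UMIs of Igfbp3 and Igfbp4 and 790 CPM of Igfbp5. The 8 RPR2 cells that did lie in the cluster were other cells. Of those, 2 held 2 or more endothelial markers, with 88 UMIs of Igfbp3, 10 of Igfbp4 and 127 of Igfbp7. Split at the median depth, the shallower 266 cells held 464 CPM of Igfbp3 and 1347 of Igfbp7 and the deeper 265 cells 204 and 837.

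**Figure D4:**
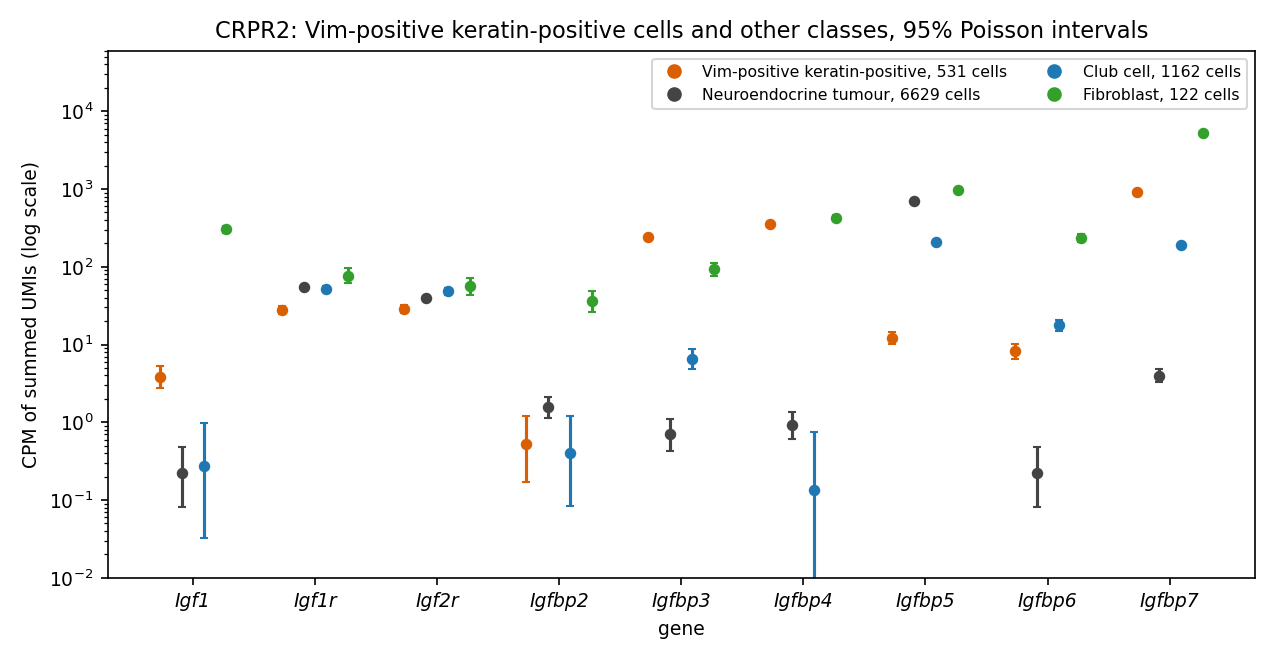
CPM of summed UMIs (log axis, 95% Poisson intervals) of the 9 genes in 4 cell classes of CRPR2. Vim-positive keratin-positive cells stand near fibroblast-like cells for Igfbp4 (351 against 429 CPM), above them for Igfbp3 (239.9 against 93.2 CPM), between club-like and fibroblast-like cells for Igfbp7, and below all 3 other classes for Igfbp5 (12.1 CPM).

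Outside the tumour cells, fibroblast-like cells held the ligand Igf1 in 3 of the 4 libraries and Igfbp7 at a high level in all 4. In preSC_CracdKO other classes had the highest value for Igf1 (macrophage-like), Igfbp4 (T-cell-like) and Igfbp6 (neutrophil-like). The values for Igfbp4 and Igfbp6 rest on 11 and 10 UMIs, and their intervals overlapped those of fibroblast-like cells. In fibroblast-like cells (41, 122, 647 and 38 cells of RPR2, CRPR2, preSC_WT and preSC_CracdKO) Igfbp7 stood at 3732, 5203, 3884 and 3614 CPM, with ratios of 1.39 in the lung pair and 0.930 in the allograft pair. Igf1 stood at 281, 303 and 214 CPM in the first 3 libraries, and gave 0 UMIs in the 38 cells of preSC_CracdKO, at least 19.2-fold lower than in preSC_WT with a floor of 3 counts in the library. Igfbp4 stood at 212, 429, 695 and 81.7 CPM, Igfbp5 at 4906, 983, 692 and 189 CPM, and Igfbp6, a carrier with a preference for IGF2, at 1867, 233, 1044 and 63.1 CPM. Igfbp3 stood at 127, 93.2, 76.8 and 249 CPM, Igf1r at 78.7, 76.9, 84.3 and 201 CPM, and Igf2r at 60.5, 56.1, 73.3 and 130.0 CPM. Igfbp2 gave 0 UMIs in RPR2 and stood at 36.2, 25.02 and 115 CPM in the others. All 9 members had 20 CPM in the higher library of each pair. Of them 2 were higher in CRPR2 (Igfbp4, 2.02-fold, and Igfbp2, at least 3.98-fold) and 2 lower (Igfbp5, 4.99-fold, and Igfbp6, 8.0-fold), where 6.99% and 12.7% of all genes at that level were. In preSC_CracdKO 3 were higher (Igf1r, Igfbp2 and Igfbp3) and 4 lower (Igf1, Igfbp4, Igfbp5 and Igfbp6), where 15.4% and 13.1% were. Some of these levels rest on few cells. The 67 Igfbp3 UMIs of preSC_CracdKO lay in 4 of the 38 cells, and the 40 Igfbp2 UMIs of CRPR2 in 8 of the 122. Tumour-class markers summed to 1783 CPM in the fibroblast-like cells of preSC_WT and 3808 CPM in those of preSC_CracdKO, and their part in these differences was not tested.

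Those counts rest on a class of mixed and unequal makeup, which a split by other markers, added after seeing the data, makes visible. In RPR2, 4 cells with 2 or more mesothelial markers held 1596 of the 1621 Igfbp5 UMIs and 570 of the 617 Igfbp6 UMIs. The 18 RPR2 cells with 3 or more pericyte markers held 194 CPM of Igfbp5 and 6562 of Igfbp7, and the remaining 19 cells held 0 UMIs of Igfbp5. In CRPR2, 2 mesothelial-marker cells held 349 Igfbp5 and 175 Igfbp6 UMIs, and the 54 cells with neither marker set held 1101 CPM of Igfbp5. The mesothelial markers summed to 2231 CPM in RPR2 and 578 CPM in CRPR2. In both other subsets Igfbp5 was higher in CRPR2 than in RPR2, the reverse of the class sum: 377 against 194 CPM in pericyte-marker cells, and 1101 CPM against 0 UMIs in the rest. Igfbp6 stayed lower in CRPR2 in both, by less than in the class sum: 47.8 against 93.3 CPM in pericyte-marker cells and 117 against 324 CPM in the rest. The pericyte-marker values rest on 28 and 12 UMIs, and their intervals overlap (31.7 to 69.0 and 48.2 to 163 CPM).

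In the allografts, 30 of the 38 fibroblast-like cells of preSC_CracdKO carried 3 or more pericyte markers, against 175 of 647 in preSC_WT. Pericyte-marker cells of preSC_WT held 45.7 CPM of Igf1, 126 of Igfbp6, 443 of Igfbp4 and 7925 of Igfbp7. The 439 preSC_WT cells with neither pericyte nor basal epithelial markers held 311 CPM of Igf1, 1557 of Igfbp6, 886 of Igfbp4 and 2666 of Igfbp7. In preSC_WT, Igf1, Igfbp4 and Igfbp6 thus lay mainly outside the pericyte-marker cells, and Igfbp7 was highest in them. In pericyte-marker cells alone preSC_CracdKO held 0 UMIs of Igf1, 92.5 CPM of Igfbp4, 194 of Igfbp5, 44.1 of Igfbp6 and 4203 of Igfbp7.

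**Figure D5:**
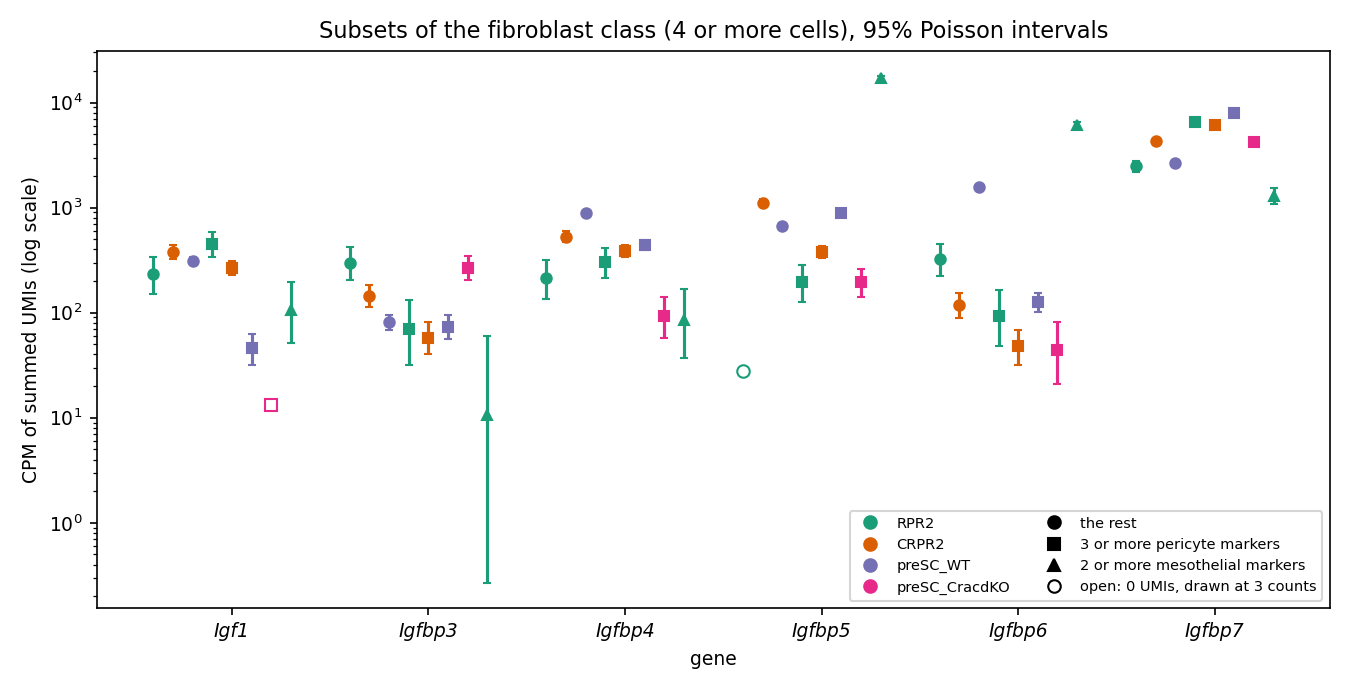
CPM of summed UMIs (log axis, 95% Poisson intervals) of 6 of the genes in subsets of the fibroblast-like class with at least 4 cells, split by mesothelial or pericyte markers (marker shape) and by library (colour); open symbols are 0 UMIs drawn at 3 counts, and basal epithelial-marker cells of the allografts are not drawn. The RPR2 mesothelial-marker cells stand highest for Igfbp5 (17027 CPM) and Igfbp6 (6081 CPM), and pericyte-marker cells stand high for Igfbp7 in every library (4203 to 7925 CPM).

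Endothelial-like cells were found in the allografts, with 230 cells in preSC_WT and 17 in preSC_CracdKO, too few in the latter to compare. In preSC_WT they led the library for Igfbp7 (5311 CPM), Igfbp3 (1329 CPM, in 51.3% of cells) and Igf2r (105 CPM), and held 414 CPM of Igfbp4, 231 of Igfbp5, 73.1 of Igf1r and 38.6 of Igf1. Igfbp3 in the fibroblast-like class of that library was 76.8 CPM. The 17 cells of preSC_CracdKO held 2356 CPM of Igfbp3 and 3188 of Igfbp7.

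Macrophage-like cells also held Igf1. Their level was not separable from that of fibroblast-like cells in RPR2 or of endothelial-like cells in preSC_WT (overlapping intervals), was below fibroblast-like cells in CRPR2 and preSC_WT, and was the highest of the 6 classes compared in preSC_CracdKO. Igf1 stood at 268 CPM (63 UMIs) in RPR2 and 226 CPM (141 UMIs) in CRPR2. It stood at 53.5 CPM (92 UMIs) in preSC_WT and 149.6 CPM (22 UMIs) in preSC_CracdKO. In the lung pair the ratio was 0.843 (0.622 to 1.15), and 0 of 2 members tested in these cells were past 2-fold (18.3% of all genes were). In the allograft pair Igf1 was 2.79-fold higher in preSC_CracdKO (1.67 to 4.49). There 3 of 5 members tested were higher and 1 lower, on 38 cells (12.6% and 19.8% of all genes were). The lower one was Igfbp5, with 257 CPM in preSC_WT macrophage-like cells and 0 UMIs in preSC_CracdKO. Tumour-class markers summed to 3607 and 3712 CPM in these cells, and tumour cells of the same libraries held 904 and 73.5 CPM of Igfbp5. The part of tumour RNA in this result was not tested.

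Neutrophil-like cells had the highest Igf1r level in all 4 libraries, at 168, 242, 406 and 399 CPM in RPR2, CRPR2, preSC_WT and preSC_CracdKO, although in RPR2 the interval (94.2 to 278) overlapped that of fibroblast-like cells (51.4 to 115). These sums rest on 15, 33, 14 and 28 UMIs in 38, 101, 40 and 65 cells. After thinning to 1000 UMIs, 22.9% of the RPR2 and 20.3% of the CRPR2 neutrophil-like cells had an Igf1r UMI, against 3.86% and 5.41% of tumour cells, on 35 and 64 cells deep enough. Before thinning the neutrophil-like shares were 28.9% and 26.7%. Igfbp6 in neutrophil-like cells stood at 123, 51.2 and 143 CPM in RPR2, CRPR2 and preSC_CracdKO, from 11, 7 and 10 UMIs. It gave 0 UMIs in the 40 cells of preSC_WT.

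T-cell-like cells carried Igfbp4. It stood at 31.4 CPM in RPR2 and 123 CPM in CRPR2 (3.93-fold higher, 3.33 to 4.63), whereas preSC_WT held 27.2 CPM and preSC_CracdKO 116 CPM, the last from 11 UMIs. Of 3 members tested in the lung T-cell-like class 1 was higher, where 7.38% of all genes were, and of 4 in the allografts 2 were higher and 1 lower, where 13.7% and 25.8% were. The lung values followed the clusters. Cluster 9, high in Lef1 and Ccr7, genes of resting T cells, held 141 CPM in RPR2 (1015 cells) and 244 CPM in CRPR2 (496 cells). Cluster 11, high in the cytotoxic gene Nkg7, held 11.4 and 4.03 CPM. The Rag1-high cluster 8, made of RPR2 cells only, held 0 UMIs of Igfbp4 in 2709 cells, and cluster 13, with 165 CPM of Rag1 and 673 RPR2 cells, held 3.61 CPM. In the allografts, T-cell-like cluster 6 held 285 CPM of Lef1 and 1245 of Nkg7 in preSC_WT, and 915 and 621 CPM in preSC_CracdKO. Ncr1, a natural killer cell gene, stood at 51.6 and 84.1 CPM there. In lung cluster 11 Ncr1 stood at 45.6 CPM in RPR2 and 165 CPM in CRPR2. The part of this makeup in the allograft Igfbp4 values was not tested.

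Within cluster 9, cells with a Cd4 UMI held 200.3 CPM of Igfbp4 in RPR2 and 351 CPM in CRPR2, and cells with a Cd8a UMI held 44.2 and 143 CPM. The level was thus higher with Cd4 than with Cd8a in both libraries, and the ratio between the libraries within cluster 9 was smaller than over the whole class. In preSC_WT T-cell-like cells also held 160.4 CPM of Igfbp5, on 407 UMIs, against 0 UMIs in preSC_CracdKO, as in macrophage-like cells; the part of tumour RNA in this was not tested.

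Club-like airway cells (275 in RPR2, 1162 in CRPR2) held Igfbp5 at 267 and 205 CPM, Igfbp7 at 183 and 193 CPM, Igf1r at 46.9 and 51.9 CPM, Igf2r at 49.1 and 48.2 CPM and Igfbp6 at 19.7 and 17.7 CPM. Of 4 members tested 0 were past 2-fold, where 2.54% of all genes were. Tumour-class markers summed to 3937 and 3679 CPM in them, and their part in the Igfbp5 level was not tested. B-cell-like cells were low for every member: the highest value was 42.2 CPM of Igfbp5 in preSC_WT, and Igf1 and Igfbp6 gave 0 UMIs in all 4 libraries. In plasma-cell-like cells 80 UMIs made an Igfbp7 level of 52.7 CPM in CRPR2, against 2 UMIs in RPR2.

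The rest of the pathway was read in the tumour class from 6 lists that include the members. In the lung pair 0 of 4 ligand and receptor genes, 0 of 1 binding protein, 0 of 2 genes of ligand release, 0 of 13 adaptor and PI3K genes and 0 of 9 downstream genes with 20 CPM were past 2-fold, where 1.19% of all genes were. Igf2, the ligand cleared by IGF2R, had 167 CPM in RPR2 and 209.9 CPM in CRPR2, and Insr, the insulin receptor, at 16.4 and 16.2 CPM.

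In the allografts, where 22.0% of all genes were past 2-fold in either direction, 1 of 4 ligand and receptor genes was lower and 0 higher, 2 of 4 binding proteins were higher and 2 lower, 1 of 3 genes of ligand release was higher and 1 lower, 5 of 15 adaptor and PI3K genes were lower and 0 higher, and 1 of 11 downstream genes was higher and 1 lower. Medians of the log2 ratio were -0.43, -0.31, 0.22, -0.77 and -0.05, beside -0.15 over all 8146 genes. Igf2 was 8.25 CPM in preSC_WT and 0.531 CPM in preSC_CracdKO, under the level rule. Insrr, a receptor of the insulin receptor family, was 36.0 and 2.08 CPM (17.3-fold lower). Igfbpl1, a binding protein-like gene, was 20.5 and 2.27 CPM (9.03-fold lower). Pappa, a protease that cleaves IGFBP4, was 38.7 and 4.61 CPM (8.40-fold lower), and Stc1, which encodes an inhibitor of that protease, was 0.885 and 24.0 CPM (27.1-fold higher).

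Among the adaptors, Irs2 stood at 118 and 43.1 CPM (2.74-fold lower) and Grb14, an adaptor that inhibits insulin-family receptors, at 48.9 and 7.86 CPM (6.22-fold lower). The PI3K subunits Pik3r3 (3.34-fold lower) and Pik3cb (2.07-fold lower) and the kinase Akt1 (2.34-fold lower) completed the 5. Downstream, Rheb, the GTPase that activates mTORC1, was 308 and 71.5 CPM (4.31-fold lower), and Eif4ebp1, the translation repressor that mTORC1 phosphorylates, was 18.1 and 78.9 CPM (4.37-fold higher). The same difference in clusters between the libraries lies under these values as under those of Igfbp2 and Igfbp5.

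Each member was set against every other gene over the 32 class and library sums of 30 or more cells, by Pearson's r of log2(CPM + 5). These sums share libraries, depth and cells with free RNA, and r is given as a description. Igfbp3 was most like Tm4sf1 (r = 0.968), Hspg2 (0.964) and Ecscr (0.950), and Igfbp7 like Sparc (0.957), Htra1 (0.947) and Ehd2 (0.933). Igfbp2 was most like Pde1a (0.901), Col11a1 (0.898) and Tro (0.897), and Igfbp5 like Limch1 (0.893), Sgce (0.888) and Etv1 (0.888). Igf1 was most like Mmp19 (0.886), Lpl (0.886) and Dab2 (0.865), Igfbp6 like Gsn (0.822), Fam114a1 (0.815) and C1s1 (0.810), and Igfbp4 like Oaf (0.801) and F2r (0.798). Igf1r was most like Klf7 (0.828), Tnrc18 (0.827) and Eef2k (0.809). Igf2r was most like Airn (0.827), followed by Arhgef12 (0.825) and Ccser2 (0.805). Airn is the antisense RNA that overlaps Igf2r by 28354 bases at chr17:12741311-12860136 in mm10, and whether counting used strand is not given in the sources used here, so reads of this pair may not be separable.

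The other members lie apart from one another in mm10. Igf1 is at chr10:87858265-87937042 (plus strand), Igf1r at chr7:67952827-68233668 (plus), Igf2r at chr17:12682406-12769664 (minus), Igfbp4 at chr11:99041244-99054392 (plus), Igfbp6 at chr15:102144362-102149511 (plus) and Igfbp7 at chr5:77349240-77408041 (minus). Igfbp3, at chr11:7206086-7213923 (minus), has Igfbp1 as its neighbour at a distance of 3539 bases. In tumour cells Igfbp1 gave 1 and 3 UMIs in RPR2 and CRPR2 and 0 in both allografts.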

How the data were processed

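Each library was made with the 10x Chromium 3' kit, version 3.1, per the labels' protocols, after enzymatic digestion of tissue and removal of red and dead cells. The deposited values are raw UMI counts for each gene in each barcode. Cell Ranger 6.1.2 wrote the lung matrices and 5.0.0 the allograft matrices, per the file headers. Build mm10, Cell Ranger 6.1.2, Scanpy 1.8.2 and Seurat 1.8.2 are listed in the submitters' processing notes. Which annotation, strand setting and cell-calling rule were used is not given in the sources used here. The smallest barcode totals were 500 or 501 UMIs.

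Cells needed 300 or more genes and no more than 15% mitochondrial UMIs. Scrublet's automatic threshold removed 259 doublets in RPR2 and 356 in preSC_WT. It marked 0 in CRPR2 and preSC_CracdKO, so there the top scores, at a rate of 0.8% per 1000 barcodes, were taken out (1145 and 2083 cells). The libraries of a pair were clustered together, with no batch correction, on 2000 variable genes (members barred), 50 principal components, 15 neighbours and Leiden resolution 1.0. Clusters were named from marker lists and called "-like". The Vim-positive keratin-positive class needed 500 CPM of Vim and 200 CPM of Krt8 plus Krt18.

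Counts were summed per class and library. Ratios carry exact conditional binomial intervals, at 95%, and a gene counted as past the fold at 2-fold or more with 20 CPM in the higher library, in classes of 30 or more cells in both. Log2 ratios used a pseudocount of 1 CPM. A count of 0 was bounded by a floor of 3 counts. All 9 members are named throughout; other pathway genes are named where past the fold in tumour cells, with a few ligands, receptors and neighbours added after their values were seen; the 3 genes most like each member needed 50 CPM in a class, and some genes are not reported here. The members and lists were chosen with earlier results of these data known. Gene positions come from the GENCODE annotation of mm10 and promoters from RefSeq, which listed all 9 members. The calling rule was tested on simulated data. Tools were Python 3.11.15, scanpy 1.11.5, anndata 0.12.19, igraph 0.11.9, numpy 2.4.6, scipy 1.17.1, scikit-learn 1.9.0, pandas 2.3.3 and matplotlib 3.10.9, with the seed 1. Filters, doublet removal, resolution, level and fold were varied as alternatives.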

Additional observations from a re-analysis of the deposited data

Results flagged for a closer look

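As labelled, the ratios of Igfbp2 and of Igfbp5 in tumour cells lay on opposite sides of 1 in the lung and allograft pairs. The Igfbp2 ratio was 0.151 for CRPR2 over RPR2, on 42 and 232 UMIs, and 14.1 for preSC_CracdKO over preSC_WT. The Igfbp5 ratio was 1.20 in the lung pair, under the 2-fold rule, and 0.0813 in the allograft pair. Over the 8 alternatives run, the lung ratio of Igfbp5 ranged from 1.04 to 1.23. With the same weight for the 4 clusters shared by the allografts the Igfbp2 ratio was 1.69. In cluster 10 Igfbp2 differed the other way (304 and 199 CPM). Igfbp5 there (69.1 and 87.9 CPM) differed by no more than counting error. The direction in the allografts rests on labels that the Cracd levels go against (6.51 CPM in preSC_WT, 84.1 CPM in preSC_CracdKO), and exchanged labels would put both genes on the same side in the 2 pairs. With 1 library a group the difference between the models was not tested.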

How the results depend on the processing

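Of 94 recomputed counts of members or pathway genes 82 stayed within 1.5 times of the value reported and 12 moved. Of 307 recomputed values of single members 28 moved, and 0 of those past the 2-fold rule changed direction. Among those under it, the Igf2r ratio in allograft tumour cells turned from 0.606 to 1.08 with the same weight for the 4 shared clusters. With doublets kept, 1 member instead of 2 was past 2-fold downward in Vim-positive keratin-positive cells against tumour cells, Igf1r falling short. At resolution 0.5, members that differed 3-fold between tumour clusters numbered 1 instead of 2 in RPR2 and 0 instead of 1 in CRPR2. At 5 CPM, 1 member (Igfbp2) and 1 pathway gene, the same gene, were lower in CRPR2, instead of 0, where 1.40% of genes were. With no minimum level, 2 members were higher and 1 lower in CRPR2 (10.3% and 13.6% of genes), and 4 were higher and 2 lower in preSC_CracdKO (22.3% and 23.6%). At 1.5-fold, 2 members were lower in preSC_CracdKO instead of 1, Igf2r joining (26.6% of genes). With the same weight for the 4 tumour clusters held by both allografts, 1 member was higher instead of 2. Thinned to 2000 UMIs, 3 members instead of 1 had a UMI in 5% or more of RPR2 tumour cells. The cause of these moves was not tested beyond the change of rule itself. No paired analysis was possible because each group holds 1 library and the labels carry no replicate numbers. The splits of the fibroblast-like class and the cells without endothelial markers were chosen after seeing the data. Depth limits small classes most: neutrophil-like sums rest on 14 to 33 Igf1r UMIs, and fibroblast-like cells of preSC_CracdKO number 38.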
